A study of Mus musculus with 6 samples.

Results

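The complement system was described through 9 genes measured in heart ventricle, chosen by name in the deposited count table: C1qa, C1qb, C1qc, C1ra, C3, C4b, Serping1, C3ar1 and Cd55. All 9 were found among the 49315 genes of that table, and all 9 passed the filter on low counts that left 14370 genes for testing. Complement is a cascade of plasma and membrane proteins. C1q recognises immune complexes and dying cells, the proteases C1r and C1s bound to it cleave C4 and C2, and the convertase so formed cleaves C3, whose fragments mark surfaces and attract leukocytes. Inhibitors in plasma and on host membranes hold the cascade in check. In most tissues macrophages make C1q, while fibroblasts and other stromal cells make C1r, C1s, C3 and C1 inhibitor.

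The samples were mid-ventricular heart tissue of adult mice, 3 labelled as endothelial-specific TET2 knockouts (TET2KO) and 3 labelled wild type (WT), called biological replicates in the series' design text. TET2 is a dioxygenase that oxidises methylated cytosine in DNA. Both groups had received Angiotensin II, a peptide that raises blood pressure, from osmotic minipumps at 1 mg/kg/day for 28 days, so there was no uninfused group. The sources used here do not name the promoter driving the deletion, the deleted exons, the strain or the exact age. The libraries held 22124844 to 30418909 reads counted to genes, of which 4276 to 9861 fell on the 9 genes.

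Tet2, the targeted gene, was measured as a check of the labels. It stood at 14.6, 8.01 and 10.4 CPM (reads scaled to a common library size by the TMM method) in the libraries labelled TET2KO, against 4.27, 4.33 and 3.08 CPM in those labelled WT. As counted it was higher in the libraries labelled TET2KO (log2 fold change 1.49 ± 0.29, edgeR adjusted p = 0.00652), against the label. Its transcript is long (9179 nt), and once the trend on length and GC described below was taken out the groups overlapped and the difference was 0.27 ± 0.17 (edgeR adjusted p = 0.215). In neither fit was Tet2 lower in TET2KO. In TPM, which divides reads by gene length, Tet2 stood at 2.34, 1.06 and 1.48 in TET2KO, against 0.393, 0.441 and 0.266 in WT. The labelled deletion is in endothelial cells of a whole tissue, so counts over a whole gene may not show it. Why the counts were higher was not tested, and directions are stated by label. Each log2 fold change sets TET2KO over WT and carries its SE. Adjusted p is that of the quasi-likelihood test of edgeR after Benjamini-Hochberg correction over the tested genes, and a gene passed when it was under 0.05.

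Across all tested genes 62.9% passed the test, 33.4% higher and 29.4% lower in the libraries labelled TET2KO, and fold changes followed transcript length. Genes were put in 10 bins of equal size by transcript length. The median log2 fold change was -1.29 in the shortest bin (up to 1094 nt) and 1.38 in the longest (from 6551 nt). C1qa and C1qb lay in the shortest bin, and C3 and C4b in the bin from 4984 to 6549 nt, where the median was 1.02. Each result is therefore given also after a smooth trend on GC content and transcript length was taken out of every library, called the trend-removed value. That fit called 21.9% of 14341 genes higher and 24.3% lower. Which part of the trend came from the libraries and which from the tissue was not tested. For each of the 9 genes TET2KO replicate 2 had the CPM nearest to WT in its group. How many other genes had this order was not counted. Replicate 2 also stood apart from its group over the wider count table. Chi-squared per degree of freedom was 260 between TET2KO replicates 1 and 2 and 120 between 2 and 3. It was 41.4 between TET2KO replicates 1 and 3, and 11.9 to 15.2 between WT libraries.

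Of the 9 genes, 5 rose (C1ra, C3, C4b, Serping1 and C3ar1), 2 fell (C1qb and Cd55) and 2 did not pass (C1qa and C1qc). With 62.9% of all genes past the test, this count does not set the 9 genes apart. Their median log2 fold change was 0.72, against 0.05 over all tested genes. After trend removal 4 rose (C1qc, C1ra, Serping1 and C3ar1), 0 fell and 5 did not pass, where 46.2% of all genes passed. The median was then 0.23, against -0.03 over all genes. C1ra, Serping1 and C3ar1 were the 3 that rose in both fits.

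**Figure D1:**
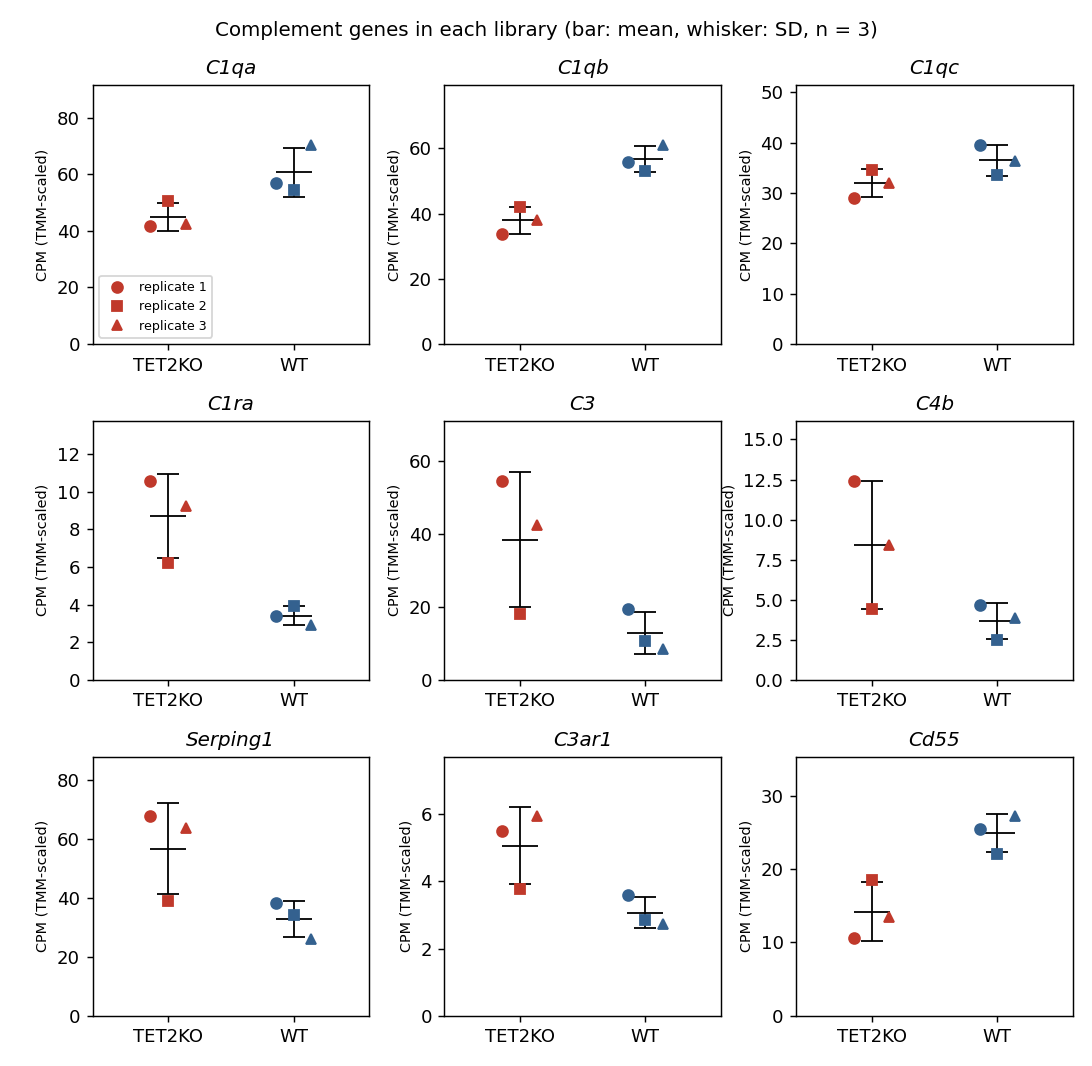
Levels of the 9 complement genes in each library, in CPM scaled by TMM factors, with TET2KO on the left and WT on the right of each panel. Points are libraries, bars are means and whiskers are SDs (n = 3). C1ra, Serping1 and C3ar1 had all TET2KO libraries above all WT libraries, while C1qa, C1qb and Cd55 had them all below.

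Sequences upstream of C3, which rose as counted, and of C1qb and Cd55, which fell as counted, are shown. None of these genes passed after trend removal (0.08 for C3, 0.17 for C1qb and 0.05 for Cd55). Sequences were looked at because TET2 acts on methylated cytosine, mostly at CpG sites. Whether it acted at these genes was not tested. C3, C1qb and Cd55 are the members with a RefSeq entry whose window lies wholly outside the gene as annotated in GENCODE M21. Each sequence is the 250 bases before the RefSeq start (GRCm38.p6), 5′ to 3′ on the gene's strand. Capitals mark matches on either strand to TGCTGA (the core of Maf recognition elements), GAGGAA (PU.1) or TTGCNNAA (C/EBP), motifs chosen after the sequences had been seen.
C3, chr17:57228137-57228386, minus strand: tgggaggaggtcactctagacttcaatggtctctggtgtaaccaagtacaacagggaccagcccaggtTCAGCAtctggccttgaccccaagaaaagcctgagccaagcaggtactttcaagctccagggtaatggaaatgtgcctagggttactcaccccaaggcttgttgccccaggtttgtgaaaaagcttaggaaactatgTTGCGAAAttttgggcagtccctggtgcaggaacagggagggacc
C1qb, chr4:136886201-136886450, minus strand: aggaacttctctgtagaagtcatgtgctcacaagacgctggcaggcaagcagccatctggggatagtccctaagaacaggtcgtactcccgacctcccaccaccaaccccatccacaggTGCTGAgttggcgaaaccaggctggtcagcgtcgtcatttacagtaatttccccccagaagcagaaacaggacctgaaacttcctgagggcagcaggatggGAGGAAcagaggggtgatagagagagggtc
Cd55, chr1:130462745-130462994, minus strand: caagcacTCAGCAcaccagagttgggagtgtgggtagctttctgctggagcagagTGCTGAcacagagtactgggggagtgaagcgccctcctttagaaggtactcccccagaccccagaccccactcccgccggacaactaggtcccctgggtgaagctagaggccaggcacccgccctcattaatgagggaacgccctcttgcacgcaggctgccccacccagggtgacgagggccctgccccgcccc

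These windows held 1 CpG site for C3, 6 for C1qb and 8 for Cd55, against a median of 6 over 32851 RefSeq promoter windows of the same length. Windows of members not shown, which reach into the gene, held 5 CpG sites for C1ra, 5 for C3ar1 and 2 for C1qc. TGCTGA was found in all 3 windows shown, and it occurs in 16.1% of the 32851 RefSeq windows. Of those not shown, the C3ar1 window held it and the C1ra and C1qc windows did not. GAGGAA was found in C1qb alone of the 3 shown, in the C1qc window and in 23.3% of all windows. TTGCNNAA was found in C3 alone of the 3 and in 9.56% of all windows, and TTCNNNGAA, the GAS element of interferon signalling, in none of the 3 and in 7.02% of all windows. No motif overlapped another in these windows. No DNA methylation or binding was measured here, and a match is only a match of letters.

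The 3 chains of C1q, the recognition molecule of the classical pathway, had the highest TPM of the 9 genes in WT, and in TET2KO only Serping1 came between them. Their genes lie side by side on the minus strand of GRCm38 chromosome 4: C1qb (ENSMUSG00000036905) from 136880129 to 136886187, C1qc (ENSMUSG00000036896) from 136889804 to 136893065 and C1qa (ENSMUSG00000036887) from 136895917 to 136898803. C1qb stood at 33.7, 42.1 and 38.1 CPM in the libraries labelled TET2KO, against 55.8, 53.1 and 61.1 CPM in those labelled WT. Its groups did not overlap, and it was 1.49-fold lower (log2 fold change -0.58 ± 0.16, adjusted p = 0.014). C1qa stood at 41.7, 50.6 and 42.6 CPM in TET2KO, against 57.0, 54.6 and 70.4 CPM in WT. Its groups did not overlap either, but the difference of -0.43 ± 0.17 did not pass (adjusted p = 0.0552). In the authors' deposited table C1qa passed, with a log2 fold change of -0.48 and an adjusted p of 0.035. C1qc stood at 29.1, 34.7 and 32.0 CPM in TET2KO and 39.6, 33.5 and 36.5 CPM in WT. These groups overlapped, and the difference did not pass (-0.19 ± 0.15, adjusted p = 0.285).

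The direction of the C1q chains depended on the scale. Trend-removed log2 fold changes were 0.23 ± 0.11 for C1qa (adjusted p = 0.124), 0.17 ± 0.11 for C1qb (adjusted p = 0.224) and 0.42 ± 0.11 for C1qc (adjusted p = 0.0171). Trend-removed, the groups of each chain did not overlap, with TET2KO above WT. Of the 3 only C1qc passed, and it did not when the trend used merged exon length (0.02, adjusted p = 0.924) or without TET2KO replicate 3, WT replicate 2 or WT replicate 3 (0.41, 0.37 and 0.36). C1qc had trend-removed levels of 5.37, 5.20 and 5.34 log2 CPM in TET2KO, against 5.01, 4.84 and 4.80 in WT. In TPM, which divides reads by gene length, the 3 chains summed to 233, 235 and 224 in TET2KO and to 197, 204 and 208 in WT. The fall of C1qb as counted was likewise -0.15, not past the test, when libraries were scaled by total reads (adjusted p = 0.376), and -0.51 with no filter on low counts (adjusted p = 0.0768). Leaving out TET2KO replicate 3, WT replicate 1 or WT replicate 3 ended the call of C1qb (-0.54, -0.60 and -0.53). C1qa passed without TET2KO replicate 2 (-0.50, adjusted p = 0.00354) and with RLE instead of TMM factors (-0.47, edgeR adjusted p = 0.0479).

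The chains are assembled in equal numbers in the C1q protein, so their ratios within a library were compared, which needs no scaling between libraries. C1qb had 0.81, 0.83 and 0.90 reads per read of C1qa in TET2KO, against 0.98, 0.97 and 0.87 in WT. C1qc had 0.70, 0.68 and 0.75 reads per read of C1qa in TET2KO and 0.70, 0.61 and 0.52 in WT. Both pairs of groups overlapped, and neither difference passed the exact permutation test (two-sided p = 0.2 for each, 0.267 adjusted over 4 ratios). The smallest p that 3 against 3 libraries can give is 0.1. TPM of C1qc rests on a merged exon length of 1931 nt, against 1203 nt for its longest coding transcript, so its level per length, 40.3 ± 0.37 TPM in TET2KO and 29.7 ± 2.17 TPM in WT, depends on which transcript was present.

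C1ra, which encodes the protease C1r that activates C1s, was the member whose rise passed under each of the 22 alternative settings. The gene (ENSMUSG00000055172) lies on the plus strand of chromosome 6, from 124512405 to 124523443. It held 10.6, 6.24 and 9.27 CPM in the libraries labelled TET2KO, against 3.41, 3.92 and 2.91 CPM in those labelled WT. The lowest TET2KO library, replicate 2, was above every WT library. Means were 8.70 ± 2.24 CPM in TET2KO and 3.41 ± 0.51 CPM in WT (SD, n = 3 each), a fitted rise of 2.54-fold (edgeR log2 fold change 1.35 ± 0.27, adjusted p = 0.00653). The trend-removed value was 1.15 ± 0.22 (adjusted p = 0.00478). Over the alternatives the log2 fold change ran between 1.01 and 1.90, with adjusted p between 5.03e-06 and 0.0353. Its near-identical copy C1rb had no read in any library, a depth at which 3 reads equal 0.0809 to 0.168 CPM. Of 150-base windows of the C1ra transcript, 26.3% occur in C1rb transcripts too, so reads there cannot be assigned to 1 gene.

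C1s1, which encodes the partner protease C1s, rose less. Its level was 22.2, 16.2 and 22.7 CPM in TET2KO, against 14.4, 11.8 and 10.5 CPM in WT (log2 fold change 0.74 ± 0.21, adjusted p = 0.0176, trend-removed 0.86 ± 0.19). Its call was lost on leaving out TET2KO replicate 3, WT replicate 2 or WT replicate 3 (0.69, 0.70 and 0.63). The transcripts of C1ra and C1s1 are of similar length, 2981 and 2946 nt, but their GC content is 50.9% and 47.0%. The trend made up 0.20 of the log2 fold change of C1ra as counted and -0.12 of that of C1s1. Ratios of their reads as counted therefore hold part of the trend. C1ra had 0.48, 0.38 and 0.41 reads per read of C1s1 in TET2KO, against 0.24, 0.33 and 0.28 in WT. These ratios did not overlap, with a log2 difference of 0.59 and the smallest p the exact permutation test can give (two-sided p = 0.1, 0.267 adjusted over 4 ratios).

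C3 and C4b encode the thioester proteins that complement deposits on surfaces, and both have long transcripts (5136 and 5379 nt). C3 (ENSMUSG00000024164, chromosome 17, 57203970 to 57228136, minus strand) stood at 54.7, 18.2 and 42.6 CPM in the libraries labelled TET2KO, against 19.5, 10.8 and 8.57 CPM in those labelled WT. TET2KO replicate 2 lay below WT replicate 1, so the groups overlapped. The rise was 2.97-fold (log2 fold change 1.57 ± 0.45, adjusted p = 0.0179). The call was lost when TET2KO replicate 3, WT replicate 2 or WT replicate 3 was left out (1.54, 1.44 and 1.34). C4b (ENSMUSG00000073418, chromosome 17, 34728380 to 34743882, minus strand) held few reads, 461, 132 and 265 in TET2KO and 97, 61 and 69 in WT. Its level was 12.4, 4.40 and 8.42 CPM in TET2KO, against 4.66, 2.49 and 3.86 CPM in WT, again with TET2KO replicate 2 below WT replicate 1. The log2 fold change was 1.20 ± 0.41 (adjusted p = 0.0345), and of the 6 libraries left out in turn only the loss of TET2KO replicate 2 kept it past the test (1.54, against 0.85 to 1.40).

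Neither rise passed after trend removal. C3 then had a log2 fold change of 0.08 ± 0.26 (adjusted p = 0.818) and C4b one of -0.58 ± 0.23 (adjusted p = 0.067), opposite in sign to the value as counted. The trend-removed fall of C4b passed without WT replicate 2 (-0.81, adjusted p = 0.0206) and without TET2KO replicate 2 (-0.57, adjusted p = 0.0333). When the trend used merged exon length, C3 stood at 0.71 and C4b at -0.03, neither past the test. C3 had 4.40, 4.13 and 5.06 reads per read of C4b in TET2KO and 4.20, 4.31 and 2.22 in WT, a difference that did not pass the exact permutation test (two-sided p = 0.3). The copy C4a held at most 4 reads in a library, and 8.26% of the 150-base windows of C4b occur in it.

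**Figure D2:**
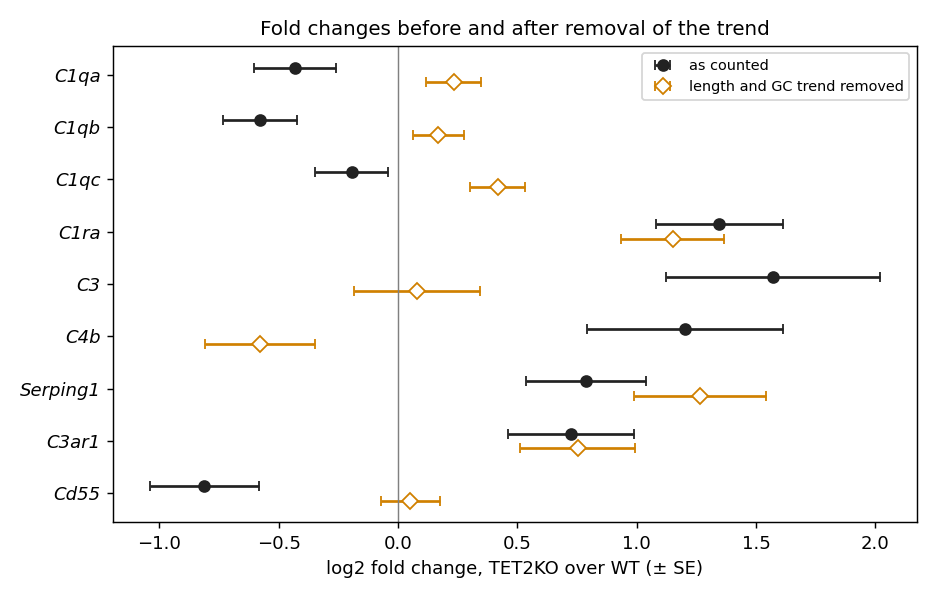
Log2 fold change of TET2KO over WT for the 9 genes, as counted (filled circles) and trend-removed (open diamonds); whiskers are SEs. C1ra stood at 1.35 and 1.15, C3ar1 at 0.72 and 0.75 and Serping1 at 0.79 and 1.27, while C3 stood at 1.57 and 0.08 and C4b changed sign.

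Serping1 encodes C1 inhibitor, the plasma serpin that inactivates C1r and C1s. The gene (ENSMUSG00000023224) lies on the minus strand of chromosome 2, from 84765387 to 84775444. It stood at 67.6, 38.9 and 63.5 CPM in the libraries labelled TET2KO, against 38.2, 34.2 and 26.1 CPM in those labelled WT. The groups did not overlap, though TET2KO replicate 2 lay just above WT replicate 1. The rise was 1.72-fold (log2 fold change 0.79 ± 0.25, adjusted p = 0.0268). Serping1 has a short transcript (1768 nt), in a length bin whose median log2 fold change was -0.50, and its trend-removed rise was larger, 1.27 ± 0.28 (adjusted p = 0.00743). As counted it did not pass when any 1 library other than TET2KO replicate 2 was left out (0.64 to 0.90). Trend-removed it passed without each of the 6 libraries (1.04 to 1.52).

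C3ar1 encodes the receptor for the C3a fragment, found mainly on myeloid cells. The gene (ENSMUSG00000040552) lies on the minus strand of chromosome 6, from 122847138 to 122856161. It was weakly expressed, at 5.50, 3.77 and 5.94 CPM in TET2KO and 3.60, 2.86 and 2.74 CPM in WT. All TET2KO libraries were above all WT libraries, by little in replicate 2. The log2 fold change was 0.72 ± 0.26 (adjusted p = 0.0421) as counted and 0.75 ± 0.24 (adjusted p = 0.0314) after trend removal. Neither value passed when any 1 library other than TET2KO replicate 2 was left out (0.61 to 0.85). As counted it also failed with no filter on low counts (0.79, adjusted p = 0.0505).

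Cd55 encodes decay-accelerating factor, a membrane protein that breaks up C3 convertases. The gene (ENSMUSG00000026399) lies on the minus strand of chromosome 1, from 130439027 to 130462744. It stood at 10.6, 18.5 and 13.5 CPM in the libraries labelled TET2KO, against 25.5, 22.0 and 27.2 CPM in those labelled WT. All TET2KO libraries were below all WT libraries. The fall was 1.75-fold (log2 fold change -0.81 ± 0.23, adjusted p = 0.0171). Its transcript has 40.4% GC, and the trend-removed value was 0.05 ± 0.12 (adjusted p = 0.748). With total library size as the scale it was -0.39 and on log2(TPM + 1) values -0.18, neither past the test. The fall as counted ended on leaving out TET2KO replicate 3 (-0.74), WT replicate 1 (-0.80) or WT replicate 3 (-0.75).

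Groups did not overlap as counted for 3 genes higher and 3 lower in TET2KO among the 9, where 73.5% of all tested genes had no overlap, 38% higher and 35.5% lower. After trend removal this held for 6 higher (the 3 C1q chains, C1ra, Serping1 and C3ar1) and 0 lower, where 59.2% of all genes had no overlap, 27.8% higher and 31.3% lower. Levels between genes were compared per length. In TPM, TET2KO libraries had C1qa (105 ± 5.58), C1qb (84.9 ± 1.28), Serping1 (60.7 ± 21.2) and C1qc (40.3 ± 0.37) in this order, with C3 at 18.9 ± 10.5 and the other 4 below 8. WT libraries had C1qa (91.3 ± 6.87), C1qb (81.8 ± 2.13), C1qc (29.7 ± 2.17) and Serping1 (22.4 ± 5.23), with Cd55 at 8.05 ± 0.21 and C3 at 3.97 ± 1.77. Serping1 ranged from 37.3 to 78.6 TPM in TET2KO and so overlapped C1qc there. In TET2KO, C1ra (7.27 ± 2.48) and Cd55 (7.06 ± 1.33) did not differ beyond their spread in TPM. Their TPM divides by merged exon length, 2981 nt for C1ra but 4853 nt for Cd55, whose longest coding transcript has 2533 nt. For Serping1 these lengths are 2325 and 1768 nt. The comparison of C1ra with Cd55 and the place of Serping1 therefore depend on the length used. Summed over the 9 genes, TPM came to 365, 297 and 331 in TET2KO and to 240, 245 and 238 in WT.

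**Figure D3:**
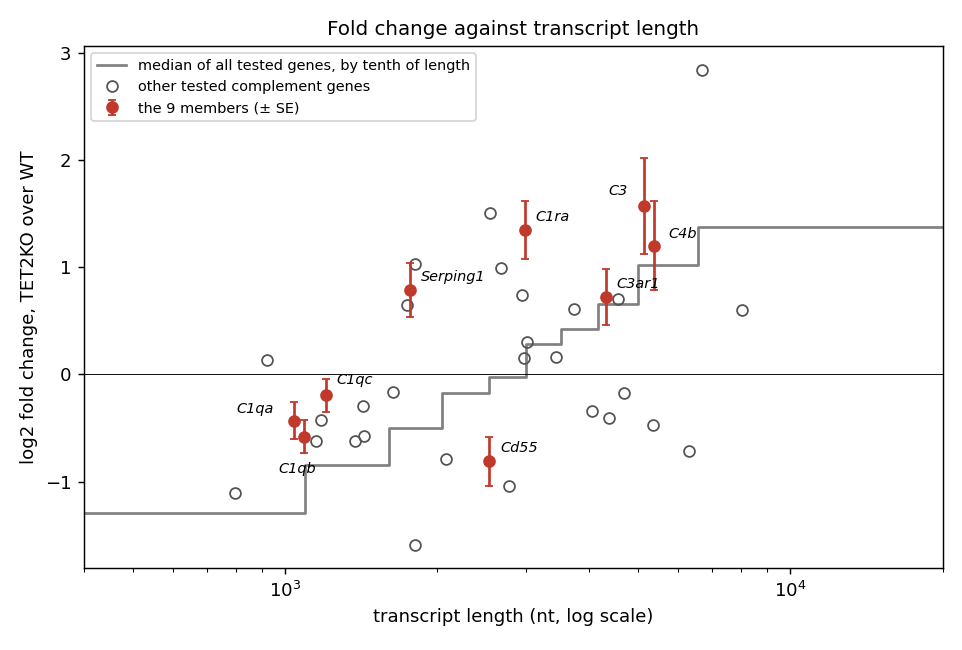
Log2 fold change of TET2KO over WT against transcript length (log axis) for the 37 tested complement genes, with the 9 members filled (± SE). The grey steps give the median of all tested genes in each length bin, which ran from -1.29 to 1.38. C1ra and Serping1 lay furthest above the steps among the 9, and Cd55 lay below them.

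The wider cascade was followed in a list of 59 gene entries, the 9 included, of which 37 were tested. As counted 12 rose, 5 fell and 20 did not pass, so that 45.9% were past the test against 62.9% of all genes, with a median log2 fold change of -0.17 against 0.05 over all genes. After trend removal 12 rose, 4 fell and 21 did not pass, or 43.2% past the test against 46.2% of all genes, with a median of 0.08 against -0.03. Across the 37 genes the Spearman correlation of fold change with log transcript length was 0.42, a description over genes that share the same libraries. The genes with too few reads to test included most of the lectin and terminal pathway genes, and Cfb and C2. Among them Mbl1 and C9 had no read in any library. Of 4 lectin pathway genes tested 0 passed as counted. After trend removal 1 rose and 1 fell, where 21.9% of all genes rose and 24.3% fell. The fall was Masp1 (-1.28 ± 0.23, edgeR adjusted p = 0.00451), the lowest trend-removed value of the list. As counted Masp1 stood at -0.48 ± 0.19 (edgeR adjusted p = 0.0565). The rise was Colec11 (0.35 ± 0.12, edgeR adjusted p = 0.0406), at -0.29 ± 0.16 as counted. Both were chosen after their values were seen.

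Of 6 membrane regulators tested, 4 fell (Cd55, Cd59a, Cd59b and Cr1l), 1 rose (Thbd) and 1 did not pass, where 29.4% of all genes fell. Scaled by total reads, only Cd59a and Cr1l of the 4 passed (-1.17 and -0.62), and on log2(TPM + 1) values only Cd59a did (-1.04). Cd59a, whose product blocks the membrane attack complex, stood at 76.2, 184 and 110 CPM in the libraries labelled TET2KO, against 391, 338 and 384 CPM in those labelled WT (log2 fold change -1.59 ± 0.32, adjusted p = 0.00655). Cr1l encodes Crry, a rodent regulator of C3 and C4 cleavage on cells, and stood at 56.2, 99.2 and 68.6 CPM in TET2KO, against 154, 143 and 164 CPM in WT (-1.04 ± 0.23, adjusted p = 0.00772). Neither pair of groups overlapped. Both remained past the test after trend removal, at -0.78 ± 0.15 for Cd59a and -0.56 ± 0.13 for Cr1l. Cd59b, the second Cd59 gene of the mouse, fell by 1.10 as counted and had a trend-removed value of 0.14. Thbd, which encodes the endothelial protein thrombomodulin, rose by 0.61 and had a trend-removed value of 0.01. When the trend used merged exon length, Thbd stood at 0.51 and passed (edgeR adjusted p = 0.0146). With the trend on transcript length and GC removed, the group had 0 higher, 2 lower and 4 not past the test, where 24.3% of all genes were lower. As counted, neither Cd59b (-1.06, -0.996 and -1.09) nor Thbd (0.54, 0.61 and 0.56) held its call on leaving out TET2KO replicate 3, WT replicate 1 or WT replicate 3, and Cd59b lost it without TET2KO replicate 1 too (-0.80).

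Of 6 soluble regulators tested, 3 rose (Clu, Vtn and Serping1), 0 fell and 3 did not pass, with the same counts after trend removal, where 33.4% and 21.9% of all genes rose in these fits. Clu encodes clusterin, which binds terminal complement complexes, and stood at 524, 370 and 452 CPM in TET2KO, against 203, 239 and 220 CPM in WT. Its groups did not overlap (log2 fold change 1.03 ± 0.20, adjusted p = 0.00652, trend-removed 1.16 ± 0.16). Vtn encodes vitronectin, another inhibitor of the terminal complex, and stood at 29.9, 23.1 and 25.6 CPM in TET2KO, against 15.1, 18.1 and 17.0 CPM in WT (0.65 ± 0.17, trend-removed 0.88 ± 0.16). As counted it did not pass without WT replicate 1 or 3 (0.57 and 0.65). C7, the component that anchors the terminal complex to membranes, was 1 of only 2 tested terminal pathway genes and stood at 6.50, 4.94 and 4.32 CPM in TET2KO, against 2.45, 2.53 and 2.97 CPM in WT (0.99 ± 0.25, trend-removed 1.22 ± 0.23). Its call as counted was lost without WT replicate 1 (0.92).

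Among 9 tested receptor genes 3 rose (C3ar1, C5ar1 and Cd93), 0 fell and 6 did not pass, where 33.4% of all genes rose. After trend removal 4 rose, 1 fell and 4 did not pass, where 21.9% of all genes rose and 24.3% fell. The calls gained were C1qbp (0.45 ± 0.11, edgeR adjusted p = 0.0111) and Itgam (-0.93 ± 0.31, edgeR adjusted p = 0.0353), both chosen after their values were seen. C1qbp encodes a mainly mitochondrial protein that binds C1q, and Itgam a chain of complement receptor CR3. As counted C1qbp had the opposite sign and did not pass (-0.42 ± 0.17, edgeR adjusted p = 0.062), with all TET2KO libraries below all WT libraries. In the authors' deposited table C1qbp was lower in TET2KO (-0.47) and past the threshold of 0.05. Itgam stood at -0.17 ± 0.36 as counted. A second Itgam entry, with at most 5 reads in a library, was not tested. Cd93, a receptor once assigned to C1q and expressed by endothelial and myeloid cells, stood at 122, 31.8 and 83.6 CPM in TET2KO, against 9.99, 13.9 and 9.24 CPM in WT (log2 fold change 2.84 ± 0.47, adjusted p = 0.00652, trend-removed 1.63 ± 0.25). C5ar1, which encodes the receptor for C5a, stood at 6.18, 2.40 and 3.94 CPM in TET2KO, against 1.20, 2.25 and 0.90 CPM in WT (1.51 ± 0.46, adjusted p = 0.0228, trend-removed 1.67 ± 0.44). TET2KO replicate 2 was the lowest of its group for both. Leaving out TET2KO replicate 1, TET2KO replicate 3, WT replicate 1 or WT replicate 3 ended the call of C5ar1 (1.14, 1.59, 1.37 and 1.26).

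Cell type markers were set beside these results, since in bulk tissue a change in the number of cells of a type and a change in RNA per cell cannot be told apart. For comparison with the marker counts, 33.4% of all genes rose and 29.4% fell as counted. After trend removal 21.9% of all genes rose and 24.3% fell. Of 14 macrophage markers 5 rose, 2 fell and 7 did not pass, and their summed TPM was 92.1 to 132 in TET2KO and 56.3 to 74.3 in WT. After trend removal 2 rose and 2 fell. Of 5 markers of all leukocytes 1 rose and 3 fell (2 and 1 after trend removal), with summed TPM of 61.1 to 74.9 in TET2KO and 85.0 to 87.1 in WT. Within that sum Tyrobp had a mean of 33.2 in TET2KO and 56.6 in WT, while Laptm5 had 7.07 and 0.44. Of 3 neutrophil markers tested 2 fell, S100a8 and S100a9, and only S100a8 did after trend removal. Fibroblast markers had 4 higher and 4 lower of 8, with summed TPM of 1501 to 1645 in TET2KO and 1151 to 1291 in WT, and endothelial markers 4 higher and 3 lower of 7. Within the fibroblast sum Gsn had a mean of 756 in TET2KO and 314 in WT, while Dcn had 544 and 610 and Dpt 134 and 172. After trend removal fibroblast markers had 1 higher and 0 lower, and endothelial markers 3 higher and 1 lower. Red blood cell markers fell in all 5 cases, in both fits, with summed TPM of 566 to 2123 in TET2KO and 2928 to 14103 in WT. Their part in the results was not tested. Liver markers were at or near 0, with summed TPM of at most 1.32 in any library and no read of Fgb or Serpina1a. The mesothelial markers Msln and Upk3b had 119 and 145 reads in WT replicate 1, 19 and 36 in WT replicate 2 and at most 1 in each other library, and Lrrn4 had 22, 6 and at most 1. Wt1, the only one of the 4 mesothelial markers with enough reads to test, was higher in TET2KO, with 213, 103 and 147 reads there and 42, 53 and 19 in WT (log2 fold change 1.39 ± 0.34, edgeR adjusted p = 0.0106, trend-removed 0.79 ± 0.26). WT replicate 1 also held the most C3 of its group, and without it the rise of C3 was 1.98 (adjusted p = 0.0319).

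Likeness to the C1q chains was measured as Pearson's r with their mean log2 CPM over the 6 libraries. Among the closest genes outside the list were Ckm, Spa17, Hexa and Ttll1 (r of 0.998 to 0.999). As many as 3541 of 12658 genes had an r over 0.9, so many genes were nearly as alike. With the trend removed Arhgap17, Esrrg, Washc5 and Rai2 were among the closest. Among the 9 genes, C1ra and Serping1 had an r of 0.94 as counted and 0.97 after trend removal. C1qb and C1ra had -0.99 as counted and 0.92 after it. These pairs are examples, and other pairs were as close as counted (0.98 for C3 and Serping1, -0.98 for C1ra and Cd55). Over these 6 libraries an r also holds the difference between the groups, so it does not set a pair apart.

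**Figure D4:**
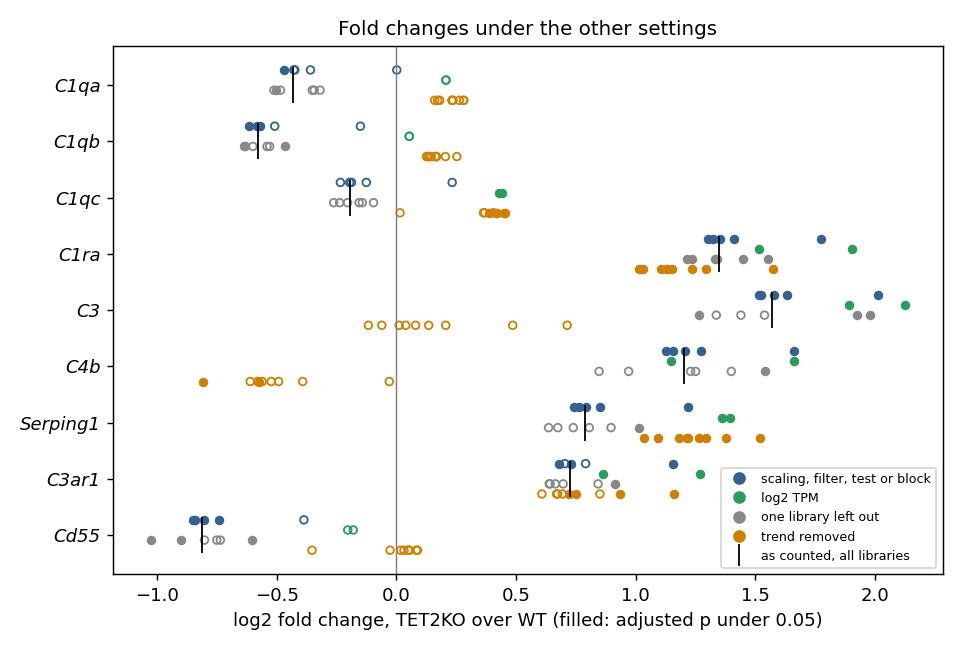
Log2 fold change of TET2KO over WT for each of the 9 genes under 22 other settings, coloured by kind of setting; filled points passed the test (adjusted p under 0.05) and black ticks give the value as counted. C1ra stayed between 1.01 and 1.90 and passed in every one of the 22, while C3 ran from -0.12 to 2.13 and C4b from -0.81 to 1.66.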

How the data were processed

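Poly(A) RNA of 6 hearts was sequenced as read pairs of 150 bases. Trimmomatic 0.36, STAR 2.5.2b, featureCounts of Subread 1.5.2 and DESeq2 are named in the submitters' processing notes, and the notes list GRCm38 and mm10. No source used here gives the strand setting or the annotation release, so reads of overlapping genes may be shared. The deposited table of the authors holds whole-number counts per gene. The deposited TPM values of the authors sum to a fixed total per library, and their ratios to the counts match division by merged exon length. The authors' deposited comparison table gives log2 fold changes and p-values. Its deposited normalised signal per library stands in a constant ratio to the raw counts within each library, as a division by 1 size factor gives, and was not tested.

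Counts were tested with edgeR 4.0.16 in R 4.3.3 (TMM factors, filterByExpr, robust quasi-likelihood test, 3 libraries per group), with Benjamini-Hochberg adjustment and a threshold of 0.05. SEs are the log2 fold change divided by the root of F. Trend removal fitted log2 CPM (prior count 2) to transcript length and GC content (GENCODE M21) with mgcv 1.9.3 and used the fit as offsets. Alternatives used DESeq2 1.42.0 and limma 3.58.1 on log2 TPM with pseudocounts of 1 and 0.1. The scripts were tested on simulated data. The 9 genes, the wider list and the markers were chosen with earlier results of these data known. Genes named from the wider list, beside the 9, were at most 4 per role and past the test as counted. Exceptions were copies of named genes, genes with too few reads to test, and C1qbp, Itgam, Masp1 and Colec11. Replicates are separate mice only as far as the design text calls them biological. Counting limits cover counting error only.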

Additional observations from a re-analysis of the deposited data

How the results depend on the processing

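Of 440 values for single genes under the alternatives, 291 kept sign and side of the threshold, 82 kept sign but lost the call, 2 gained one and 65 changed sign. Of those 65, 17 were values of C1qa or C1qc past the test neither as counted nor under the alternative. As counted 5 of the 9 genes were higher and 2 lower, and 12 and 5 of the wider list, among 9037 genes past the test. The number lower among the 9 was 0 with total library size, with either TPM pseudocount, with the trend removed, with merged exon length in the trend (3 higher) and with the trend removed plus the replicate block, and 1 with no filter on low counts. It was 3 with RLE factors, where C1qa passed (-0.47, edgeR adjusted p = 0.0479). The wider list had 8 lower with RLE factors, 2 with total library size, 1 and 2 on TPM (pseudocounts of 1 and 0.1) and 3 with merged exon length. Total library size moved the median log2 fold change of all genes to 0.47. Leaving out 1 library gave 1 to 5 higher and 0 to 3 lower of the 9, 4 to 13 higher and 2 to 13 lower of the list, and 4024 to 11178 genes past the test, trend-removed fits included.

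C1qa stood at 0.00194 with total library size, 0.21 on TPM with either pseudocount, 0.23 trend-removed, 0.28 with merged exon length, 0.23 with the block added and 0.16 to 0.28 trend-removed without 1 library, none past the test. C1qc stood at 0.23 with total library size, 0.0155 with merged exon length, and 0.41, 0.37 and 0.36 trend-removed without TET2KO replicate 3, WT replicate 2 or WT replicate 3, none past the test. The other reversed values were, for C1qb, 0.0538 and 0.0544 on TPM (pseudocounts of 1 and 0.1), 0.17 trend-removed, 0.25 with merged exon length and 0.17 with the block added. C1qc also stood at 0.43 and 0.44 on TPM, 0.42 trend-removed and 0.42 with the block added. C4b stood at -0.58 trend-removed, -0.0293 with merged exon length and -0.56 with the block added. Cd55 stood at 0.052 trend-removed and 0.054 with the block added, and Cd59b at 0.14 in both. The trend-removed fit was repeated with each library left out. Without TET2KO replicate 1, 4866 genes passed, and these other values reversed: 0.13 for C1qb, 0.39 for C1qc, -0.61 for C4b, 0.0844 for Cd55 and 0.21 for Cd59b. Without TET2KO replicate 2, 8653 genes passed, and these other values reversed: 0.21 for C1qb, 0.45 for C1qc, -0.57 for C4b, 0.0321 for Cd55, 0.0557 for Cd59b and -0.0527 for Thbd. Without TET2KO replicate 3, 4024 genes passed, and these other values reversed: 0.15 for C1qb, -0.52 for C4b, 0.0181 for Cd55, 0.0502 for Cd59b and -0.0534 for Thbd. Without WT replicate 1, 4200 genes passed, and these other values reversed: 0.13 for C1qb, 0.45 for C1qc, -0.39 for C4b, 0.0501 for Cd55 and 0.19 for Cd59b. Without WT replicate 2, 4887 genes passed, and these other values reversed: 0.14 for C1qb, -0.0606 for C3, -0.81 for C4b, 0.0338 for Cd59b and -0.000978 for Thbd. Without WT replicate 3, 4229 genes passed, and these other values reversed: 0.16 for C1qb, -0.12 for C3, -0.49 for C4b, 0.0889 for Cd55, 0.0871 for Cd59b and -0.0295 for Thbd. In those fits 2 to 4 of the 9 genes were higher and 0 or 1 lower, and of the wider list 7 to 13 were higher and 4 to 9 lower. The cause was not tested.

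Same-numbered libraries deviated together with r of 0.04, -0.23 and -0.01, and differently numbered ones with r between -0.27 and 0.26. With 3 libraries per group, these values cannot show whether same-numbered libraries share more than a number. The replicate block left 7618 genes past the test (5722 with the trend removed), 4 higher and 2 lower of the 9, and 11 and 5 of the list. C3ar1 was then 0.70 (edgeR adjusted p = 0.0783). The fewest reads of a member in a library were 49 for C3ar1, 52 for C1ra and 61 for C4b.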
